A study of Mus musculus with 6 samples.

Results

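The genes described here are 10 genes that rise in reactive astrocytes or form their intermediate filaments: Gfap, Vim, Nes, Synm, Lcn2, Serpina3n, Cp, Osmr, S1pr3 and Timp1. They were taken by gene symbol, and all 10 were found among the 24421 symbols listed in each library. All 10 also passed the filter on low values, set at 1 normalized count as the mean of all 6 libraries, as did 18413 genes in all. In control libraries the 10 genes together had between 32699 and 47305 normalized counts, and in Sox9 KO libraries between 10954 and 15029.

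RNA-seq was performed on sorted cells from the olfactory bulbs of 6 adult male mice, 3 control and 3 Sox9 KO, with 1 library per mouse. KO mice were Sox9fl/fl, with both alleles of the transcription factor gene Sox9 floxed, and controls were C57BL/6J mice, also named Sox9+/+ in the study's methods. Both groups received the adeno-associated virus AAV-GFAP-iCre-P2a-TurboRFP in the bulb, and TurboRFP-positive cells were collected 4 weeks later by fluorescence-activated cell sorting. The virus expresses Cre recombinase and the red fluorescent protein from a GFAP promoter, and the sort rested on that fluorescence. Control mice carried no floxed allele, and the groups therefore differ in line as well as in the loss of Sox9. The deposited values, called normalized counts here, are reads per gene after division by a factor for the size of the library.

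Astrocytes respond to injury, infection and inflammation with a change of state called reactivity, in which they enlarge their filament network and secrete proteins that act on immune cells, iron and the extracellular matrix. Intermediate filaments of astrocytes are built from glial fibrillary acidic protein (Gfap) and vimentin (Vim), with which nestin (Nes) and synemin (Synm) co-assemble. Reactive astrocytes are also known for the lipocalin Lcn2, the protease inhibitor Serpina3n, the copper oxidase ceruloplasmin (Cp), the metalloproteinase inhibitor Timp1, the oncostatin M receptor Osmr and the sphingosine 1-phosphate receptor S1pr3. In the olfactory bulb, Gfap and vimentin are also made by olfactory ensheathing cells, and nestin by neural progenitors.

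The libraries held between 18242129 and 86906527 reads on genes, so that 1 read was worth between 0.395 and 1.58 normalized counts. Sox9 had 5185, 6562 and 4921 normalized counts in the controls (replicates 1 to 3, in this order throughout) and 52.6, 64.3 and 57.7 in the KO libraries, a log2 fold change of −6.54. The label olfactory bulb astrocytes was checked against 15 astrocyte markers, which summed to between 689614 and 774821 normalized counts in control and between 70300 and 83833 in KO. All 15 were called lower in KO (median log2 fold change −4.22), and none was at 0. The 14 microglia markers, of cells that the label does not name, summed to between 192488 and 222389 in control and between 659602 and 773339 in KO, and 13 of 14 were called higher. The KO libraries labelled astrocytes thus carried more microglial than astrocytic marker signal, and the control libraries less. In such bulk samples, fewer astrocytes and less RNA of a gene per astrocyte cannot be told apart, which holds for every value below.

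Of the 10 genes, 9 were lower in Sox9 KO and 1, Cp, was higher. A gene was called when limma gave a Benjamini-Hochberg adjusted p under 0.05 over all genes tested and a change of at least 1.5-fold. By this rule 28.8% of all tested genes were called lower in KO and 22.2% higher, so that a call alone is common in this comparison. Every KO library lay below every control library for the 9 lower genes, as for 34.7% of all tested genes, and above for Cp, as for 32.4% of all tested genes. The median log2 fold change was −2.86 over the 10 genes and −0.07 over all tested genes. The smallest two-sided p that an exact permutation test allows for 1 gene in this design is 0.1, so the p-values come from the limma fit across all genes.

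**Figure D1:**
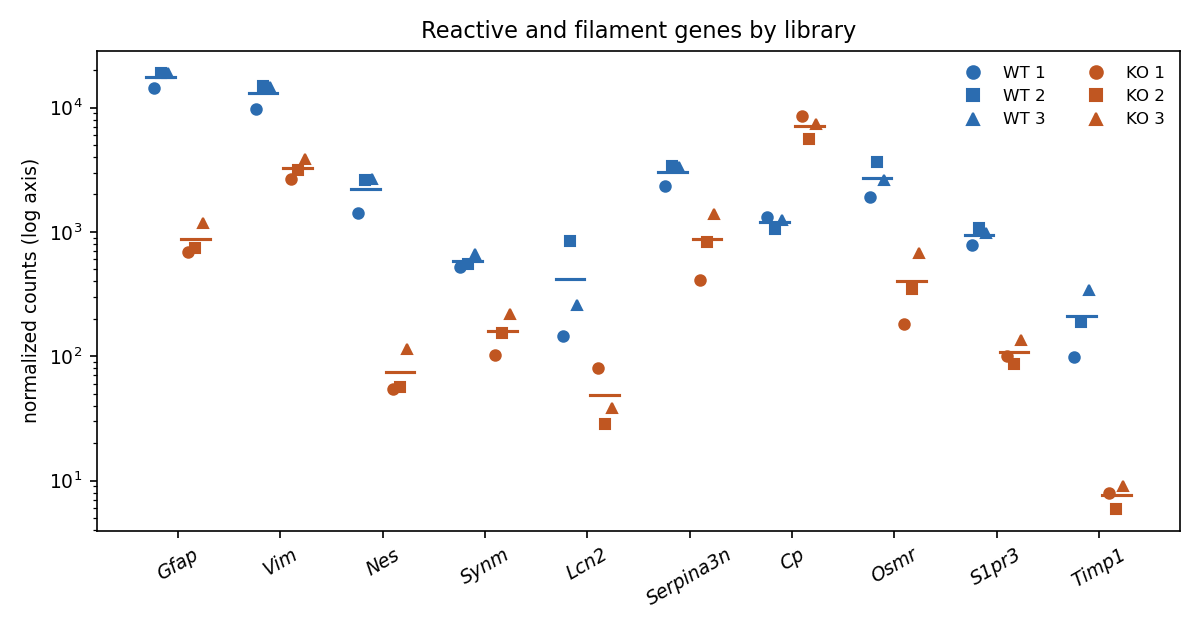
Normalized counts (log axis) of the 10 genes in each library, with WT (control) in blue and KO in orange, symbols for replicates 1 to 3 and a line at each group mean. In 9 genes all orange symbols lie under the blue ones, and in Cp they lie above.

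The sequences in front of the genes were searched for the binding motifs of factors named with these genes in other settings, in the RefSeq promoter table of mm10, which runs from 250 bases before to 50 bases after a start. All 10 genes were matched, Cp with 2 starts. The starts used for Osmr, Cp and Serpina3n lie inside the gene bounds given further on, so that the sequence before their outermost start was not searched in full. The motifs were AACAAT (SOX), TTCNNNGAA (STAT), GGNNTTTCC (NF-kB) and TGANTCA (AP-1), sought on both strands and without overlap between the matches found here. The windows that hold a match are shown to let it be seen in place, 5′ to 3′ on the gene's strand, with the match in capitals.
Gfap, chr11:102897184-102897212, minus strand, STAT: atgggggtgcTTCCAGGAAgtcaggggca
Vim, chr2:13574062-13574121, plus strand, NF-kB: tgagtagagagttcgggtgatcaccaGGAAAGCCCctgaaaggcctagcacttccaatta
Serpina3n, chr12:104406512-104406571, plus strand, NF-kB: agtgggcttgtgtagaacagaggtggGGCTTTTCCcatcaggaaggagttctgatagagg
Cp, first start, chr3:19956843-19956902, plus strand, SOX and AP-1: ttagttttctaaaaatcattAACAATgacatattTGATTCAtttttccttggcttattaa
Cp, second start, chr3:19957093-19957121, plus strand, NF-kB: tgtttgttttGGTTTTTCCccttcgtggt
Osmr, chr15:6874293-6874321, minus strand, AP-1: tgccccgtagtTGATTCAtagctggggcg
Timp1, chrX:20869916-20869975, plus strand, SOX: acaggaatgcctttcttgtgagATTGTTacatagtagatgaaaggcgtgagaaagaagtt

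The SOX letters stood in 2 of the 10 genes, Cp and Timp1, which moved in opposite directions, and in 6.52% of the 16834 promoters of tested genes (10.7% of all 32817 promoters). The STAT letters of Gfap begin 2 bases before the start and span it, and 7.14% of promoters of tested genes (8.29% of all) hold such a match. NF-kB letters were found in Vim, Serpina3n and the second start of Cp, beside 6.11% of promoters of tested genes (5.83% of all), and AP-1 letters in Cp and Osmr, beside 5.96% (7.81% of all). Nes, Synm, Lcn2 and S1pr3 held none of the 4 motifs in this window. The share of G or C in the 250 bases before the start ranged from 37.2% in the first Cp promoter to 70.0% in Synm. CpG pairs there ranged from 1 in Serpina3n to 23 in Synm. The medians over promoters of tested genes were 58.4% G or C and 13 CpG pairs. These are matches of letters in the genome and not measurements of binding.

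Gfap lies on chromosome 11 from 102887336 to 102897200 on the minus strand of mm10, with 9 exons in the transcript used here. It encodes the filament protein by which mature and reactive astrocytes are most often recognized. Gfap had 14472, 18972 and 19118 normalized counts in control replicates 1, 2 and 3. In KO replicates 1, 2 and 3 it had 691, 745 and 1170. The lowest control library stood far above the highest KO library. The means were 17520 ± 2641 in control and 869 ± 262 in KO (n = 3 per group, SD), a ratio of 20.2. The log2 fold change was −4.36 (95% interval −4.78 to −3.94, limma adjusted p = 3.6e-08), and 234 of the 18413 tested genes had a lower one.

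Vim, on chromosome 2 from 13574311 to 13582826 (plus strand, 9 exons), encodes vimentin, the partner of Gfap in astrocyte filaments and the filament protein of microglia, endothelial cells and many other cells. Its control libraries had 9724, 14970 and 14500 normalized counts and its KO libraries 2683, 3157 and 3886. The groups did not overlap, and replicate 1 was the lowest library of each. Vim fell from 13065 ± 2903 to 3242 ± 606 (n = 3 per group, SD), a ratio of 4.03 and a log2 fold change of −2.0 (95% interval −2.39 to −1.61, limma adjusted p = 4.1e-06). The ratio of Gfap to Vim normalized counts within a library was 1.49, 1.27 and 1.32 in control and 0.257, 0.236 and 0.301 in KO. These ratios did not overlap between groups, with the smallest p that an exact permutation test allows here (two-sided p = 0.1). Gfap thus made up a smaller part of the Gfap and Vim signal in every KO library.

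Nes encodes nestin, a large filament protein of neural stem cells and progenitors that reactive astrocytes take up again. It lies on chromosome 3 from 87971093 to 87980451 (plus strand, 4 exons). Control libraries had 1406, 2621 and 2656 normalized counts and KO libraries 54.6, 56.8 and 114. Control replicate 1 was the lowest control and KO replicate 3 the highest KO library, still more than an order of magnitude apart. Nes had the lowest log2 fold change of the 10 genes, −4.90 (95% interval −5.60 to −4.20, limma adjusted p = 4.0e-07), with means of 2228 ± 712 and 75.1 ± 33.6 (n = 3 per group, SD). Neural progenitor and neuroblast markers were lower in the same KO libraries, 10 of 10 called, at a median of −3.65 on the log2 scale and with summed levels of 9810 to 11705 in control and 486 to 831 in KO. Their part in the change of Nes was not tested.

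Synm, on chromosome 7 from 67730161 to 67759742 (minus strand, 4 exons), encodes synemin, which joins vimentin-based filaments and links them to other structures. It had 526, 554 and 665 normalized counts in control and 102, 154 and 219 in KO, with all control libraries above all KO libraries. The means were 582 ± 73.6 and 158 ± 58.4 (n = 3 per group, SD), a log2 fold change of −1.93 (95% interval −2.49 to −1.37, limma adjusted p = 7.3e-05). The exons of Synm share 84 bases with those of Ttc23 on the opposite strand, and the sources used here do not say whether the counting used strand. Ttc23 was also lower in KO, with a log2 fold change of −2.31.

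The 4 filament genes therefore fell in every KO library, but by unequal amounts. Gfap and Nes had log2 fold changes under −4, with 95% intervals that did not overlap those of Vim and Synm, near −2. The ratio of Nes to Vim within a library fell from 0.168 ± 0.020 in control to 0.0226 ± 0.0060 in KO (n = 3 per group, SD) without overlap (exact permutation test, two-sided p = 0.1).

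Of the other intermediate filament genes, 14 were tested, from the neurofilament, keratin, lens and lamin families and also desmin (Des) and syncoilin (Sync). Of these 14, 7 were called lower, Des among them, and 2 higher, Sync among them, at a median of −0.78. The 7 lower became 4 without control replicate 3 or without KO replicate 3, and the 2 higher became 1 without control replicate 1, KO replicate 1 or KO replicate 2. Quantile normalization gave 2 lower and 4 higher, and with a minimum mean of 10 none was called higher. Most were at a low level, and the neurofilament genes Nefl, Nefm, Nefh and Ina are markers of neurons, whose own list was lower in KO (10 of 11 called, median −2.52). The nuclear lamin gene Lmna, present in most cells, had 475 ± 62.4 and 723 ± 179 normalized counts (n = 3 per group, SD), with overlapping groups and a log2 fold change of 0.58 that stayed under 1.5-fold. Lmnb2 had 187 ± 33.9 and 153 ± 13.2, also without a call. Among 6 genes of plakins, the proteins that tie filaments to junctions, actin and microtubules, 2 were called lower and 1 higher. Plec, which encodes plectin, fell from 1365 ± 129 to 358 ± 61.0 normalized counts (log2 fold change −1.94), close in size to the fall of Vim and Synm. The larger plakin genes Macf1 and Dst had log2 fold changes of 0.16 and 0.38 and were not called.

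**Figure D2:**
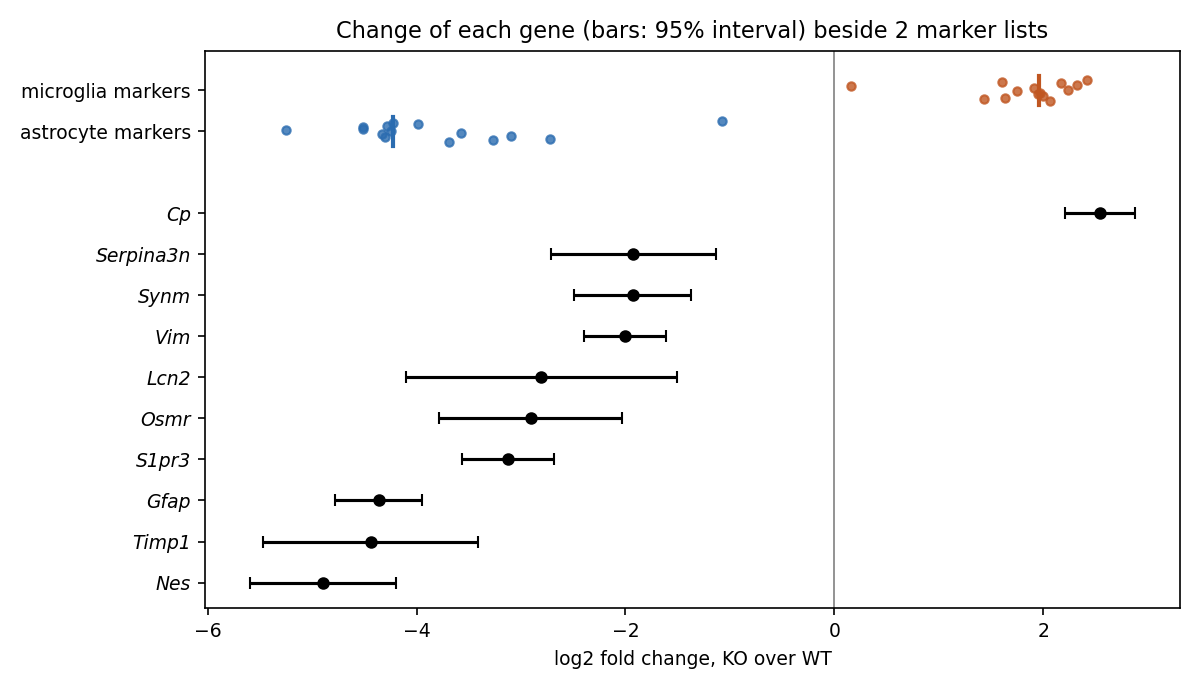
Log2 fold change of KO over WT (control) for each of the 10 genes (points, with 95% intervals as bars) and for single genes of the astrocyte and microglia marker lists (coloured points, median as a line). Nes, Timp1 and Gfap lie beside the astrocyte median of −4.22. Cp (2.55) lies to the right of the microglia median of 1.96 and of the highest microglia marker (2.42).

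Lcn2 encodes lipocalin 2, an iron siderophore-binding protein secreted by reactive astrocytes and also stored in the granules of neutrophils. It lies on chromosome 2 from 32384637 to 32387739 (minus strand, 6 exons). The control libraries had 145, 840 and 259 normalized counts and the KO libraries 80.4, 28.4 and 38.0. Control replicate 2 stood apart, with 5.81 times the level of control replicate 1, and the lowest control library was less than 2 times the highest KO library. The log2 fold change of Lcn2 was −2.80 (standard error 0.58, limma adjusted p = 0.0018), from 414 ± 373 to 48.9 ± 27.7 (n = 3 per group, SD), the least precise change of the 10 genes. Without control replicate 2 the log2 fold change was −2.10 (limma adjusted p = 0.0060).

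Several neutrophil genes were also highest in control replicate 2. S100a8 had 213, 1721 and 344 normalized counts in control and 173, 55.3 and 77.5 in KO, the same order of the 6 libraries as Lcn2. Ngp had 186, 1895 and 481 in control and 182, 115 and 77.5 in KO, also with control replicate 2 far above the rest. S100a9 had 265, 2275 and 542 in control and 318, 39.1 and 114 in KO. Its KO replicate 1 lay above control replicate 1, so that its groups overlapped, unlike those of Lcn2. The ratio of Lcn2 to S100a8 was 0.678, 0.488 and 0.752 in control and 0.466, 0.514 and 0.490 in KO, so that it overlapped between the groups where Lcn2 alone did not. Of the 9 neutrophil markers tested, 6 were called lower and 1, Csf3r, which microglia also express, higher. Without control replicate 2 the 6 became 3, and without a variance trend in limma 0. The part of neutrophil RNA in the Lcn2 values was not tested.

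**Figure D3:**
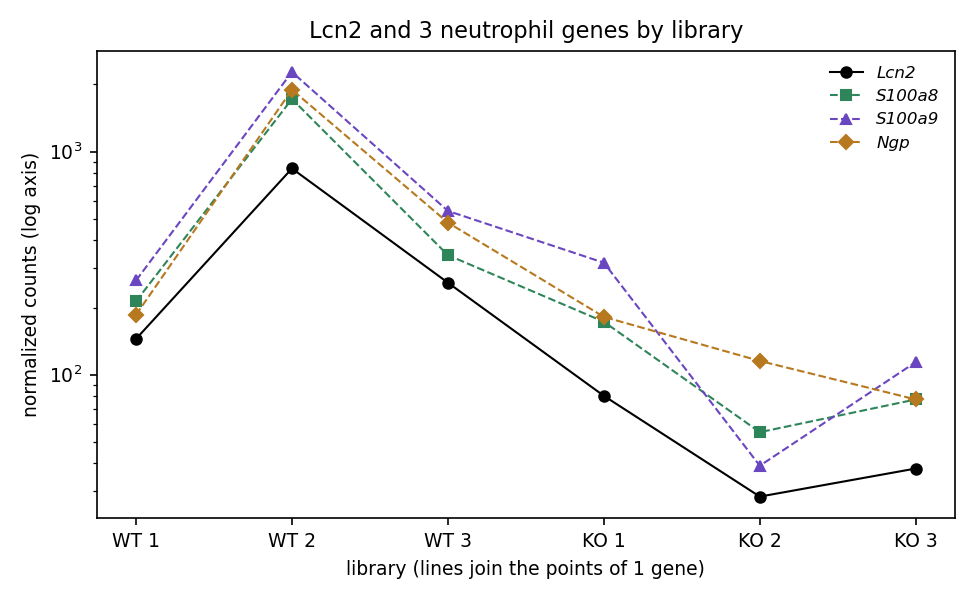
Normalized counts (log axis) of Lcn2 (black) and of the neutrophil genes S100a8, S100a9 and Ngp in each WT (control) and KO library. All 4 genes peak in control replicate 2, where Lcn2 reached 840 normalized counts.

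Serpina3n encodes a secreted serine protease inhibitor, and is one of the most widely used markers of reactive astrocytes. It lies on chromosome 12 from 104406646 to 104414334 (plus strand, 5 exons), in a cluster of paralogs. Control libraries had 2332, 3377 and 3312 normalized counts and KO libraries 408, 829 and 1404. The groups did not overlap, and the KO libraries were spread over 3.44-fold. Serpina3n fell from 3007 ± 585 to 880 ± 500 (n = 3 per group, SD), a log2 fold change of −1.92 (95% interval −2.71 to −1.14, limma adjusted p = 0.00082). Without KO replicate 1 it was −1.46.

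The paralogs of Serpina3n moved in both directions. Of 7 other genes of the cluster tested, 4 were called higher and 1 lower. The lower call was lost without control replicate 3, without KO replicate 1 and with quantile normalization. Serpina3g rose from 115 ± 49.3 to 665 ± 518 normalized counts, Serpina3f from 14.97 ± 7.96 to 448 ± 328 and Serpina3h from 66.6 ± 32.5 to 386 ± 300 (n = 3 per group, SD). The sources used here do not say how the counting treated reads that fit several of these genes, and the values of single paralogs are uncertain for that reason.

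Cp encodes ceruloplasmin, a copper-carrying ferroxidase that astrocytes hold at their surface and that helps the iron exporter ferroportin to release iron. It lies on chromosome 3 from 19956933 to 20009750 (plus strand, 20 exons). Control libraries had 1306, 1061 and 1258 normalized counts and KO libraries 8527, 5541 and 7382. The lowest KO library was over 4 times the highest control library. Cp rose from 1208 ± 130 to 7150 ± 1506 (n = 3 per group, SD), a ratio of KO to control of 5.92. The log2 fold change was 2.55 (95% interval 2.21 to 2.88, limma adjusted p = 2.4e-07), and 261 tested genes had a higher one.

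Cp was the only 1 of the 10 genes that was higher in KO, opposite to the astrocyte markers and in the direction of the microglia markers. Relative to the mean log2 level of the 14 microglia markers in the same library, Cp stood at −3.06, −3.16 and −2.91 in control and at −2.06, −2.76 and −2.16 in KO, a difference of 0.72 without overlap, and 1.53% of all tested genes lay above the controls in this way. The microglia markers rose in the same KO libraries, and the part of microglial RNA in the rise of Cp was not tested. The exons of Cp share 108 bases with those of Hps3 on the opposite strand, which was also higher in KO, with 1735 ± 185 and 6453 ± 304 normalized counts (n = 3 per group, SD).

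Other copper and iron genes moved in both directions, with 5 of 14 called lower, 4 higher and a median log2 fold change of −0.10. With libraries set to equal totals, 2 rather than 4 were called higher. The ferritin genes Ftl1 and Fth1, which encode the chains of the iron store, rose by 1.3 and 0.75 on the log2 scale. Slc40a1, which encodes ferroportin, rose from 980 ± 206 to 1631 ± 362 normalized counts (n = 3 per group, SD, log2 fold change 0.73). Heph, the ferroxidase most like Cp, fell by 1.80, and Hmox1, the heme oxygenase induced by stress, fell by 1.3.

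Timp1 encodes an inhibitor of matrix metalloproteinases that astrocytes secrete when they become reactive. Its place is chromosome X from 20870166 to 20874737 (plus strand, 6 exons). Its normalized counts were 97.9, 189 and 340 in control and 7.94, 5.92 and 9.11 in KO. The KO values rest on 8, 15 and 6 reads, against 67, 274 and 216 reads in control, and every control library was over 10 times every KO library. Timp1 fell from 209 ± 123 to 7.66 ± 1.62 (n = 3 per group, SD), a ratio of 27.3 and a log2 fold change of −4.44 (95% interval −5.47 to −3.41, limma adjusted p = 1.3e-05). At this level the added count of 1 understates the change.

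The metalloproteinases and their other inhibitors divided. Of 15 genes tested, 8 were called lower and 5 higher, with a median log2 fold change of −1.32. Timp3, the inhibitor that binds to the matrix, fell from 20902 ± 2377 to 2242 ± 434 normalized counts (n = 3 per group, SD), and Timp4 also fell, by 3.44 on the log2 scale. Timp2 instead rose from 7447 ± 681 to 23580 ± 2046 (log2 fold change 1.66), as did Adam17, the protease that sheds TNF from the cell surface (1.22).

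Osmr encodes the receptor chain for oncostatin M, which signals together with gp130 (Il6st) through JAK kinases and STAT3. The gene is on chromosome 15 from 6813568 to 6874968 (minus strand, 18 exons). Control libraries had 1910, 3655 and 2609 normalized counts and KO libraries 182, 349 and 673. The groups did not overlap, and KO replicate 3 had 3.70 times the level of KO replicate 1. Osmr fell from 2725 ± 878 to 401 ± 250 (n = 3 per group, SD), a ratio of 6.79 and a log2 fold change of −2.91 (95% interval −3.79 to −2.03, limma adjusted p = 9.7e-05).

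The partners of Osmr went the other way. Osm, the ligand, rose from 752 ± 48.0 to 4449 ± 788 normalized counts (n = 3 per group, SD, log2 fold change 2.55, limma adjusted p = 8.7e-08), and Il6st from 11651 ± 936 to 24319 ± 2078 (1.06). The ratio of Osmr to Il6st normalized counts was 0.150, 0.324 and 0.238 in control and 0.0075, 0.0132 and 0.0302 in KO, without overlap (exact permutation test, two-sided p = 0.1). Osm is made by microglia among other cells, and 13 of 14 microglia markers were called higher in the same libraries. The log2 fold changes of these markers ran from 0.16 to 2.42. The part of microglial RNA in the rise of Osm was not tested.

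Of 22 gp130 cytokine and STAT3 genes, 6 were called lower and 10 higher, with a median log2 fold change of 0.59. With libraries set to equal totals, 8 were called lower and 7 higher. The kinase gene Jak1 rose by 0.80 on the log2 scale, and Socs3, a feedback inhibitor induced by STAT3, by 1.75. Stat3 itself had 7689 ± 981 and 5724 ± 381 normalized counts (n = 3 per group, SD), with every KO library below every control, but its log2 fold change of −0.42 was under 1.5-fold and not called. Among the ligands and other receptors, Lif fell by 5.23 and Cntfr, the receptor for ciliary neurotrophic factor, by 4.07, while Lifr had a log2 fold change of 0.16 and was not called.

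S1pr3 encodes a G protein-coupled receptor for the lipid sphingosine 1-phosphate. The gene is on chromosome 13 from 51408618 to 51422797 (plus strand, 2 exons). Control libraries had 780, 1066 and 976 normalized counts and KO libraries 101, 87.2 and 135. The spread within each group was small beside the gap between them. S1pr3 fell from 941 ± 146 to 108 ± 24.7 (n = 3 per group, SD), a ratio of 8.72 and a log2 fold change of −3.12 (95% interval −3.57 to −2.68, limma adjusted p = 3.8e-07).

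S1pr1, the most studied astrocyte receptor for the same lipid, fell from 9934 ± 1259 to 1371 ± 358 normalized counts (n = 3 per group, SD, log2 fold change −2.88), and Sphk1, a kinase that makes the lipid, by 3.35. Of 13 genes of this pathway tested, 3 were called lower and 6 higher, with a median of 0.35, while libraries set to equal totals gave 4 lower and 3 higher. The lyase gene Sgpl1, whose product degrades the lipid, rose by 1.24. Receptor S1pr2 had 443 and 560 normalized counts on average and was not called.

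Levels of different genes were compared per kilobase of mRNA, within a group. In control, Gfap (6617 ± 998 normalized counts per kilobase) and Vim (5957 ± 1324) stood highest and overlapped each other, at the 99.2nd and 99.0th percentile of tested genes with a known length. Serpina3n followed at 1457 ± 284, without overlap with Vim above it or Osmr below it. Osmr (496), Lcn2 (453), Nes (364), Cp (268), Timp1 (237) and S1pr3 (211) each overlapped its neighbour in this order, and Synm was lowest at 74.4 ± 9.41, below every S1pr3 value.

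In KO the order was another one. Cp (1587 ± 334) and Vim (1478 ± 276) stood highest and overlapped, followed by Serpina3n (427 ± 242) and Gfap (328 ± 99.0), which overlapped each other but not Vim. Osmr (73.1) and Lcn2 (53.5) came next and overlapped, then S1pr3 (24.2), Synm (20.3), Nes (12.3) and Timp1 (8.67), each overlapping its neighbour. In percentiles of all genes per kilobase, Gfap moved from 99.2 to 70.4 and Nes from 73.5 to 25.1. Vim moved from 99.0 to 93.2, and Cp from 66.0 to 93.7.

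To set each gene beside the astrocyte markers of the same libraries, the mean log2 level of the 15 markers, which was 3.80 lower in KO, was subtracted in each library. This gives a description and no test. The log2 level of Gfap relative to the markers was −0.71, −0.27 and −0.10 in control and −1.08, −1.21 and −0.46 in KO, so that the groups overlapped. Nes, Lcn2, Osmr and Timp1 also overlapped, with differences of KO minus control of −1.09, 1.00, 0.90 and −0.64. The difference for Gfap was −0.56, which is the amount by which it fell beyond the markers.

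The other 5 genes stood higher relative to the astrocyte markers in every KO library than in every control, as did 91.0% of all tested genes, since the markers fell more than most genes. The differences were 1.80 for Vim, 1.87 for Synm, 1.88 for Serpina3n and 0.68 for S1pr3. Cp differed by 6.35, from between −4.42 and −4.03 in control to between 1.68 and 2.54 in KO. Other cells that make these genes were also measured in the libraries: 10 olfactory ensheathing cell markers summed to between 38464 and 47962 normalized counts in control and between 10948 and 17564 in KO. For 10 endothelial markers the sums were 2144 to 3619 and 1853 to 2450, and for 12 mural and fibroblast markers 3736 to 3960 and 1565 to 2166. The 14 microglia markers, of cells that also make vimentin, summed to between 192488 and 222389 in control and between 659602 and 773339 in KO. The part of all these cells in the levels of Vim, Synm and Serpina3n was not tested.

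**Figure D4:**
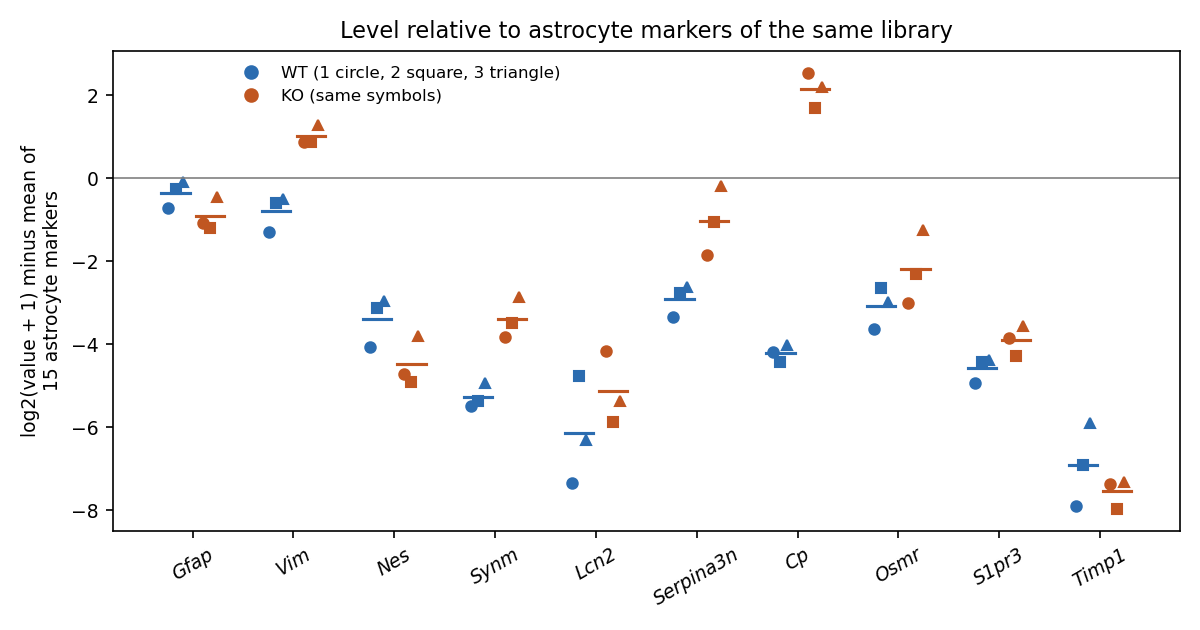
Log2(normalized count + 1) of each gene minus the mean of 15 astrocyte markers in the same library, for WT (control, blue) and KO (orange), with group means as lines. Gfap, Nes, Lcn2, Osmr and Timp1 overlap between groups, while Vim, Synm, Serpina3n, S1pr3 and above all Cp lie higher in KO.

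Among genes with a mean of at least 100 normalized counts, those most like Gfap over the 6 libraries, by Pearson's r of log2 values, were Tiam2, Ssx2ip, Cbx5, Rnf182 and Dhrs1, all with r above 0.999. The points are the 6 libraries in their 2 groups, so that any gene with a gap between the groups has a high r, which is given as a description. Of the other 9 genes, S1pr3 (0.998), Nes (0.998) and Vim (0.989) were closest to Gfap. Lcn2 was the least like it among the genes that fell (0.854), and Cp ran opposite (−0.982).

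Within groups, some libraries were low or high for most of the 10 genes. Control replicate 1 was the lowest control library in 9 of them, and KO replicate 3 the highest KO library in 8. The coefficient of variation in control was smallest for Cp (10.7%) and Synm (12.6%) and largest for Lcn2 (90.0%) and Timp1 (58.6%). In KO it was largest for Osmr (62.3%), Serpina3n (56.8%) and Lcn2 (56.5%).

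Further genes of astrocyte reactivity were taken from lists of general knowledge. Of 9 other genes common to several kinds of reactive astrocytes, 5 were called lower and 2 higher, with a median log2 fold change of −1.59. Fabp7, the brain fatty acid-binding protein, fell from 13685 ± 2987 to 4423 ± 728 normalized counts, and Aspg, an asparaginase, from 449 to 7.04. Thbs1, which encodes the secreted thrombospondin 1, rose from 844 ± 164 to 3973 ± 496, and the adhesion receptor gene Cd44 rose by 1.98 on the log2 scale. The chemokine gene Cxcl10 had 6993 ± 1910 and 10482 ± 4187 (n = 3 per group, SD) with overlapping groups and no call.

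Genes named for reactivity after inflammation (A1-type) and after ischemia (A2-type) were not alike in their counts. Of 12 A1-type genes, 9 were called higher and 2 lower, with a median of 1.80. C3, the central complement component, rose from 781 ± 169 to 10299 ± 4245 normalized counts, H2-D1, a class I histocompatibility gene, from 5594 ± 1042 to 34762 ± 2853, and the granule proteoglycan gene Srgn from 2192 ± 119 to 8170 ± 1731 (n = 3 per group, SD). Microglia also express C3, H2-D1 and Srgn. Of 13 A2-type genes, 6 were called lower and 3 higher, with a median of −0.77. Ptgs2, which encodes cyclooxygenase 2, was among the 3 higher genes and rose by 2.29, while Sphk1, given above, was among the 6 lower ones.

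Interleukin-1 and TNF induce reactivity in astrocytes and act through NF-kB. Of 18 interleukin-1, TNF and NF-kB genes, 13 were called higher and 0 lower by limma, also 0 lower at an unadjusted p of 0.05 and in edgeR and DESeq2. It was 1 lower without control replicate 1, with libraries set to equal totals (with or without Rn45s), and at an adjusted p of 0.05 with no fold threshold. Their median log2 fold change was 0.99. Il1b rose from 6397 ± 402 to 55935 ± 11023 normalized counts and Il1a from 9348 ± 956 to 29381 ± 4151 (n = 3 per group, SD), both of them cytokines of microglia. Nfkbiz, an inducible NF-kB cofactor, rose by 0.99, and Tnf, with a log2 fold change of 0.02, was not called. For Lcn2, its receptor gene Slc22a17 fell by 2.23, and the other lipocalin genes Apod and Ptgds by 1.11 and 1.98.

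**Figure D5:**
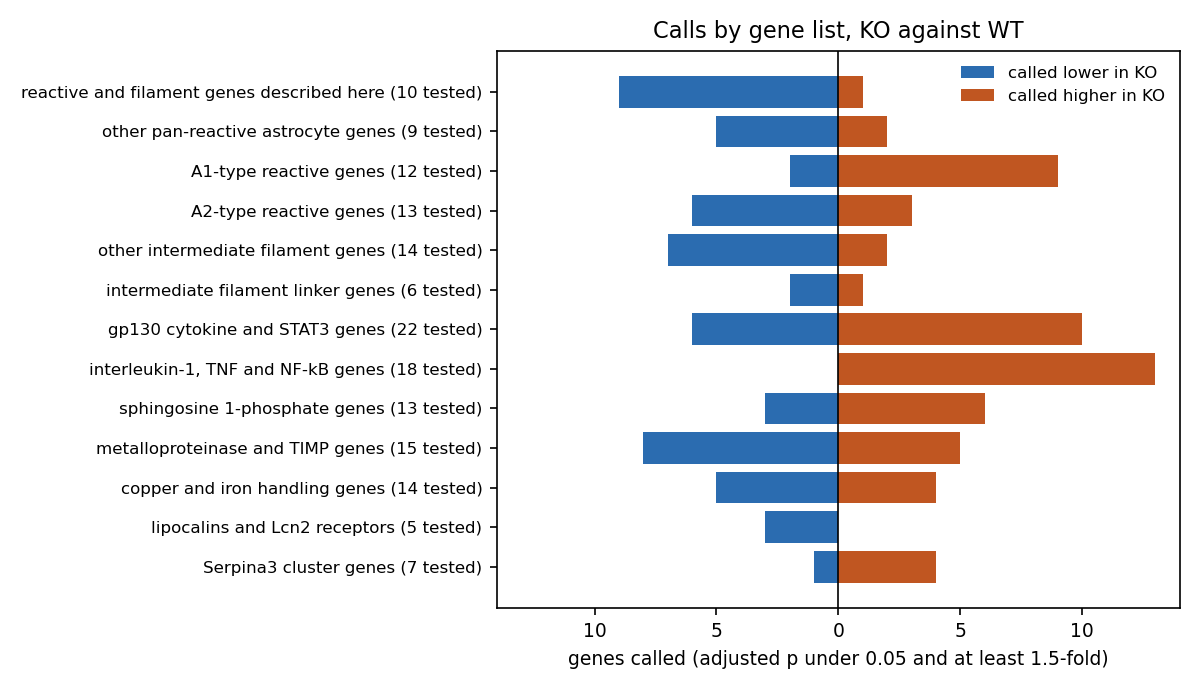
Number of genes called lower (bars to the left) and higher (bars to the right) in KO against WT (control) for the 10 genes and for 12 other lists, with the number tested in each. The 10 genes show 9 calls to the left and 1 to the right, while A1-type and interleukin-1, TNF and NF-kB genes lie mostly to the right.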

How the data were processed

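RNA was made into libraries from 10 ng of total RNA. Per the labels, the authors mapped reads to mm10 with STAR 2.5.0a and normalized them with DESeq2 1.20.0. The sources used here do not name the annotation or say whether strand was used. The deposited signal values, named RPM, are whole reads divided by a size factor per library (100% whole within 0.01 read). Depth ranged from 18242129 to 86906527 reads on genes, so that low genes are least precise in the shallow libraries.

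Log2(value + 1) of the 18413 genes with a mean of at least 1 was compared between 3 KO and 3 control libraries with limma 3.58.1 in R 4.3.3 (variance trend, two-sided, Benjamini-Hochberg adjustment over all genes tested). Another 6008 genes were left out. Each library is from a separate mouse. edgeR 4.0.16 and DESeq2 1.42.0 were run on the recovered reads, and alternatives to the pseudocount, filter, scaling and variance model were tried, with each library left out in turn. On simulated data with 200 of 18103 genes changed by 1 on the log2 scale, limma recovered 107, none with the wrong sign, and called 11 unchanged genes. Calls there used the adjusted p alone, and equal numbers of genes were raised and lowered. In the data 28.8% of genes were called lower and 22.2% higher, so the simulation does not test the scaling under so many changes. Positions are from RefSeq and mRNA lengths from the GENCODE annotation of mm10.

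The 10 genes and all lists were chosen with earlier results of these data known. Named genes are the 10, their partners, the 3 genes of highest mean in each pathway list and the 2 in each cell type list, and the 5 most like Gfap. The values of some single genes that this rule would name are not reported here. Lif, Cntfr, Lifr, Socs3, Sphk1, S1pr2, Timp4, Heph, Aspg, Cd44, Tnf, Ttc23, Hps3, S100a8, Ngp, Des and Sync were chosen after their values were seen. Protein sequences were not analysed here.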

Additional observations from a re-analysis of the deposited data

How the results depend on the processing

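Under all 20 alternatives tried, 9 of the 10 genes were called lower and Cp higher. All 200 log2 fold changes kept their direction and call. Where only the filter, variance model, block or call rule was altered, the log2 fold change stays the same by construction. Those directions could not turn. The unadjusted p and the dropped fold threshold only loosen the rule, so that no call could be lost there. With each library left out in turn, Gfap lay between −4.60 and −4.22, Cp between 2.41 and 2.72, Serpina3n between −2.35 and −1.46, Osmr between −3.38 and −2.44 and Lcn2 between −3.36 and −2.10, where its size rests on control replicate 2. The highest adjusted p of Lcn2 was 0.022, from limma without a variance trend. Scaling shifted the median of all tested genes by 0.27 (quantile), −0.23 (same total) and −0.31 (same total without Rn45s), and the share of calls that were lower moved from 56.4% to 43.2%, 67.8% and 71.5%. Of 920 counts over gene lists, 880 stayed within 1.5 times. Deviations of same-numbered libraries from their group means had correlations of −0.051, −0.013 and −0.013. Deviations within a group of 3 are tied to each other, so these cannot show whether the numbers pair the mice. The labels name no pairing. A replicate block gave the same 9 and 1 calls and 4048 higher and 5227 lower genes in all. Timp1 is limited by depth in KO.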
